A study of Homo sapiens with 3 samples.

Results

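The 29 genes described here carry the cell's response to broken or stalled DNA: checkpoint kinases, sensors of breaks, and the proteins of homologous recombination, of the Fanconi pathway and of end joining. They were taken from a list of repair and checkpoint genes that was drawn up with earlier results of these data known, so their counts are a description. All 29 matched a RefSeq gene by symbol, out of 19862 protein-coding genes on the chromosomes. The series mapped chromatin contacts of VCP in HCT116, an established line from a human colon carcinoma, made to overexpress VCP with a Flag tag. All 3 samples, 1 precipitated with an antibody to VCP, 1 with an antibody to Flag and 1 input, came from these tagged cells, and the labels name no promoter, clone or treatment. Each was a single library, so no value below has a replicate and no test between conditions was possible. A gene was counted as marked when the summit of a deposited peak lay within 1 kb of either of its outer ends on hg38.

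Cells answer a broken chromosome by first binding its ends and switching on kinases, which halt the cycle and call repair proteins. Breaks are then rejoined directly, by end joining, or copied from the sister chromatid, by homologous recombination, and the Fanconi pathway unhooks strands that are crosslinked. Ubiquitin tags order many of these steps, and VCP, an ATPase that pulls ubiquitin-tagged proteins out of complexes, is known to remove such proteins from damaged chromatin. Most of these genes are transcribed from CpG-rich promoters in dividing cells, several of them back to back with a neighbour.

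The promoters of the genes that the results turn on are printed here so that the summits below can be read against their letters. They are from RefSeq (GRCh38.p14), 5′ to 3′ on the strand of the gene, and end at the base before the annotated start. Each holds 250 bases, or fewer where another RefSeq gene begins nearer. Capitals mark matches, on either strand, to the ETS motif CCGGAAG, the SP1 motif GGGCGG and the NF-Y motif CCAAT. ATR (chr3:142578734-142578983, minus strand), BRCA2 (chr13:32315364-32315507, plus), MDC1 (chr6:30717282-30717531, minus) and RAD50 (chr5:132556816-132556976, plus) led the member Flag peaks by -log10 q. FANCD2 (chr3:10026187-10026436, plus), MRE11 (chr11:94493845-94493983, minus) and BRCA1 at its outer start (chr17:43170328-43170402, minus) had a VCP peak near the start.
ATR: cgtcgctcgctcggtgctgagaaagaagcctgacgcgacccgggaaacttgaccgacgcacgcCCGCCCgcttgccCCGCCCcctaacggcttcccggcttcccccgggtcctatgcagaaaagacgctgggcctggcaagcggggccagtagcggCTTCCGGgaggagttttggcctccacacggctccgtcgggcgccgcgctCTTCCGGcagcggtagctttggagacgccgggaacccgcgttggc
BRCA2: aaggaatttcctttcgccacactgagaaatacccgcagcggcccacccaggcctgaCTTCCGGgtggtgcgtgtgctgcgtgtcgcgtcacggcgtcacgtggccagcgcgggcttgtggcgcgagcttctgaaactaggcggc
MDC1: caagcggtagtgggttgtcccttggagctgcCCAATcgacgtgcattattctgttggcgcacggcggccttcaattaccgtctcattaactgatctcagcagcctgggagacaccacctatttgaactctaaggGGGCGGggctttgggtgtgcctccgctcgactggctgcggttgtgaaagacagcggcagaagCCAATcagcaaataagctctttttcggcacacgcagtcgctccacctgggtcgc
RAD50: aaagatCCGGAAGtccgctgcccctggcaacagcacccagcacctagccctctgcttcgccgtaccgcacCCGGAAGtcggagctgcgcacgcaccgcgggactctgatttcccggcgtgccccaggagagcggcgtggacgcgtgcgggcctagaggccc
FANCD2: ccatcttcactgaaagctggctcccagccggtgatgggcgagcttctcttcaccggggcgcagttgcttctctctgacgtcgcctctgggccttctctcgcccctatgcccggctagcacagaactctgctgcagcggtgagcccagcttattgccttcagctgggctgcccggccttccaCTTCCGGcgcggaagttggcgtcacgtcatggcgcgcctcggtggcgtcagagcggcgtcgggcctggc
MRE11: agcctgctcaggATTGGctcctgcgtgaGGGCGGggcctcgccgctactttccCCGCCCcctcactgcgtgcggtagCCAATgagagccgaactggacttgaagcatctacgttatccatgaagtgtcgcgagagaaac
BRCA1: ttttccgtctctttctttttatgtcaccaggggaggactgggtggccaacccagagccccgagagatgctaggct

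The Flag summits of ATR and MDC1 fall within the printed letters, 162 and 230 bp before the start. The ATR promoter holds 2 ETS and 2 SP1 matches, that of RAD50 2 ETS matches, those of BRCA2 and FANCD2 1 ETS match each, that of MDC1 2 NF-Y matches and 1 SP1 match, and that of MRE11 2 NF-Y and 2 SP1 matches. The 75 bases of BRCA1 hold no match to the 9 motifs searched.

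Both lists rest mostly on weak peaks. The fold enrichment is the peak caller's ratio of reads at the summit to the local background, with 1 read added to each, and the whole reads behind it were recovered for all 1816 VCP and all 5719 Flag peaks. At the lowest background (1.74 reads for VCP, 1.85 for Flag) a site needed 7 reads to be listed, so a gene without a peak may still have had reads at its promoter. The median q, the peak caller's false discovery rate, was 0.416 over the VCP list and 0.106 over the Flag list. Read intervals below are exact 95% Poisson intervals and cover counting error only, with no spread between replicates. Reads copied by PCR are not independent molecules, so the intervals are too narrow wherever such copies were counted.

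A Flag peak marked 11 of the 29 genes (37.9%), where 11.7% of all protein-coding genes were marked. These were the kinase genes ATM and ATR, the break sensor genes RAD50, NBN and MDC1, the recombination genes BRCA1, BRCA2, BARD1 and XRCC3, the Fanconi gene FANCC and the end joining gene XRCC4. A VCP peak marked 2 of the 29 (6.90%), BRCA1 and FANCD2, against 2.34% of all genes. BRCA1 alone carried both, against 0.987% of all genes. Its peaks stood at the outer of its annotated starts and not at the inner one. Of the 29 genes, 17 carried neither, beside 17261 of all 19862 protein-coding genes. Silent genes are part of that background, and whether these genes differ from other active ones was not tested.

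By role, Flag peaks stood at 2 of 4 checkpoint kinase genes, 3 of 5 genes of break sensing and mediators, 4 of 8 genes of homologous recombination, 1 of 6 Fanconi genes, 1 of 5 end joining genes and not at RAD18, a ubiquitin ligase of damage-tolerant replication. VCP peaks stood at 1 of 8 recombination genes and 1 of 6 Fanconi genes. The groups are too small to rank by share. Over the 17 genes with no peak at an end, the nearest Flag summit lay 1.14 to 1640 kb from an end (median 247 kb, which is the value of RAD18) and the nearest VCP summit 6.87 to 2190 kb (median 525 kb).

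**Figure D1:**
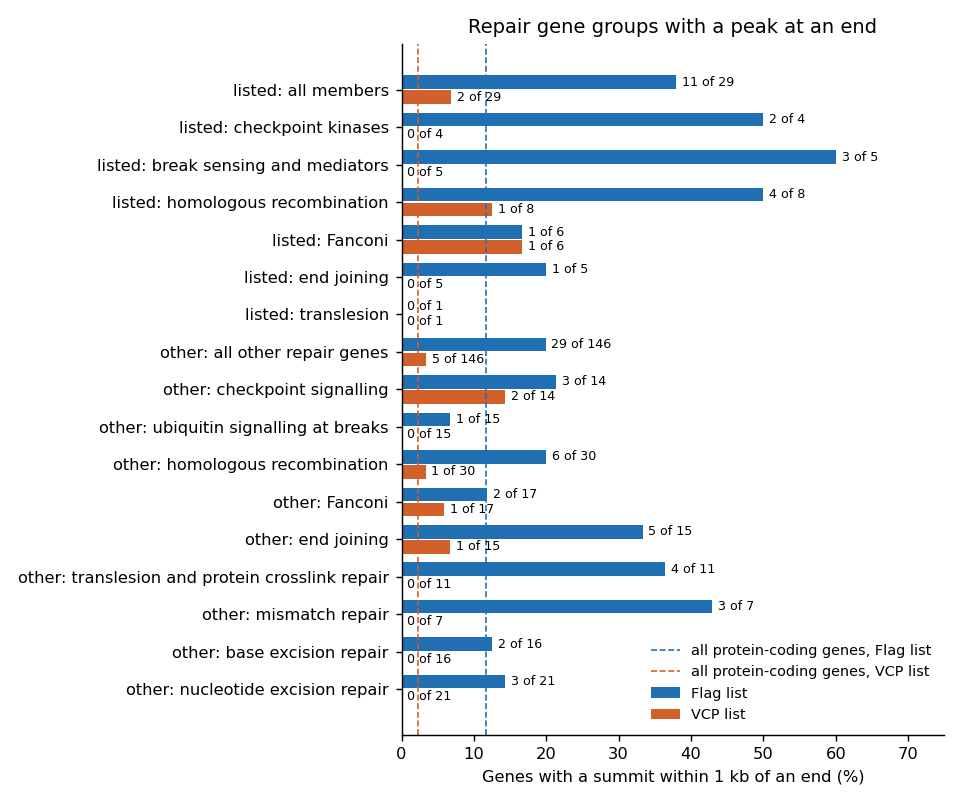
Share of genes with a summit within 1 kb of an end (horizontal axis, %), for the Flag list (blue) and the VCP list (orange), by gene group, with the counts beside the bars and dashed lines at the shares over all protein-coding genes (11.7% and 2.34%). The 29 listed genes reach 37.9% in the Flag list and the 146 other repair genes 19.9%.

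ATR, the kinase that answers single-stranded DNA at stalled forks, had the member peak with the highest -log10 q. The peak ran from 142578525 to 142579138 on chromosome 3 and peaked 162 bp upstream of the annotated start, with 19 reads at the summit (11.4 to 29.7) over a background of 3.63, a fold enrichment of 4.32 and q = 0.000158. Of the 2026 Flag peaks at gene ends, 231 had a higher -log10 q. ATM, the kinase that answers double-strand breaks, shared the lowest -log10 q of the member Flag peaks with BARD1 and XRCC3. The ATM peak, at 108223084 to 108223271 on chromosome 11, rested on 8 reads (3.45 to 15.8) over a background of 1.85, a fold enrichment of 3.16 and q = 0.348, 1 read above the least that could be listed there. The read intervals of ATR and ATM overlap. The effector kinase genes CHEK1 and CHEK2 had no peak at an end, and their nearest Flag summits lay 382 and 262 kb away. None of the 4 kinase genes had a VCP peak, and the nearest VCP summit to any of their ends was 442 kb away, at CHEK2.

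The complex that binds broken ends is made of MRE11, RAD50 and NBN, and each of its 3 genes had a peak in 1 list. RAD50, which bridges the ends, had a Flag peak on chromosome 5 (132556787 to 132557192) with its summit 58 bp inside the gene, 14 reads (7.65 to 23.5) over 2.38 and a fold enrichment of 4.44. NBN, which recruits ATM to the complex, had a Flag peak of 776 bp on chromosome 8 (89983941 to 89984716), with 14 reads (7.65 to 23.5) over 2.72, a fold enrichment of 4.03 and its summit 659 bp inside an outer end. Among the marked genes its summit was the farthest from a gene end in the Flag list. MRE11, the nuclease of the complex, had no Flag peak, and its nearest Flag summit was 287 kb from an end. Its VCP peak does not count by the outer ends, because RefSeq places one end of MRE11 18.2 kb away. The summit lay 323 bp upstream of the annotated start of MRE11 and 183 bp inside its neighbour ANKRD49 on chromosome 11 (94494030 to 94494301), with 12 reads (6.2 to 21.0) over a background of 3, a fold enrichment of 3.25 and q = 0.408.

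MDC1, the scaffold that reads phosphorylated histone H2AX beside a break, had a Flag peak of 747 bp on chromosome 6 (30716925 to 30717671). It held 15 reads (8.40 to 24.7) over 2.72, a fold enrichment of 4.30 and q = 0.00146, with the summit 230 bp upstream of the start. TP53BP1, which limits the trimming of broken ends, had no peak at an end in either list, and its nearest Flag summit was 344 kb away. The peaks of ATR, NBN, MDC1 and FANCC were over 600 bp wide, which made 4 of 11 member peaks, while 72 of all 2026 Flag peaks at gene ends (3.55%) were. The cut of 600 bp was not among the planned measures, and the peak of ATR, at 614 bp, lay just above it. The median width was 288 bp for the members and 251 bp for all. The width of a called peak depends on the caller's settings, something not given in the sources used here.

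BRCA2, a central mediator of homologous recombination, had the highest fold enrichment of the member peaks. Its Flag peak (32315224 to 32315491 on chromosome 13) held 13 reads (6.92 to 22.2) over a background of 1.85, a fold enrichment of 4.92 and q = 0.000655, and 89.6% of Flag peaks at gene ends had a lower fold enrichment. The summit lay 171 bp upstream of the BRCA2 start and 26 bp inside the divergent gene ZAR1L. BARD1, the partner of BRCA1 in a ubiquitin ligase, and XRCC3, a recombination gene, had the lowest fold enrichment of the member peaks, 3.06 each, with 9 reads (4.12 to 17.1) over 2.27 and q = 0.348. Their summits were 409 and 382 bp upstream of the starts. PALB2, which joins BRCA1 to BRCA2, and XRCC2, EXO1 and BLM, a recombination gene, an exonuclease and a helicase, had no peak at an end. Their nearest Flag summits were 6.77, 34.7, 381 and 508 kb away.

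BRCA1 was the only member marked in both lists, but its peaks did not overlap. RefSeq gives BRCA1 an outer start at 43170327 on chromosome 17 and a second one at 43125364. The Flag peak (43169915 to 43170202) had its summit 260 bp inside the outer start, with 10 reads (4.80 to 18.4) over 1.85, a fold enrichment of 3.86 and q = 0.0509. The VCP peak (43169296 to 43169588) had its summit 931 bp inside the same start, with 9 reads (4.12 to 17.1) over 1.74, a fold enrichment of 3.65 and q = 0.408. The summits lay 671 bp apart. The start at 43125364 had neither, and the nearest summits were 44.7 kb (Flag) and 44.0 kb (VCP) from it. Counted from that start alone, BRCA1 would be marked in neither list. The pairing of BRCA1 with NBR1 given below is also measured from the outer start. The Flag summit was also 342 bp upstream of the start of NBR1, an autophagy receptor gene, and both summits lay within 1 kb of an end of BRCA1P1, a pseudogene copied from BRCA1. How reads that match several places were treated was not given in the sources used here, so reads of the copies may not be told apart.

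FANCC, a subunit of the Fanconi core complex, had a Flag peak of 684 bp on chromosome 9 (95317123 to 95317806), with 10 reads (4.80 to 18.4) over 1.85, a fold enrichment of 3.86 and q = 0.0509. FANCD2, which the core complex tags with ubiquitin at a crosslink, had the VCP peak with the higher fold enrichment of the pair of VCP-marked genes. That peak ran from 10026452 to 10026669 on chromosome 3 and peaked 135 bp inside the gene, with 10 reads (4.80 to 18.4) over 1.78, a fold enrichment of 3.95 and q = 0.201. No Flag summit lay nearer than 295 kb to an end of FANCD2. FANCA, FANCI and BRIP1, a core subunit, the partner of FANCD2 and a helicase, had no peak at an end, with the nearest Flag summits 16.4, 608 and 111 kb away. FANCG, another core subunit, lay just outside the window: a Flag summit with a fold enrichment of 4.21 was 1143 bp from its far end and 71 bp from an end of VCP, the next gene on chromosome 9.

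XRCC4, the scaffold of the ligase that seals broken ends, was the end joining gene with a peak. Its Flag peak (83077114 to 83077314 on chromosome 5) held 11 reads (5.49 to 19.7) over 1.89, a fold enrichment of 4.16 and q = 0.0139. The summit was 321 bp upstream of the XRCC4 start and 168 bp inside the divergent gene TMEM167A. LIG4, the ligase itself, XRCC5 and XRCC6, which encode the Ku proteins that cap the ends, and PRKDC, the kinase that Ku recruits, had no peak at an end in either list. Their nearest Flag summits were 1640, 97.1, 55.7 and 34.7 kb away.

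**Figure D2:**
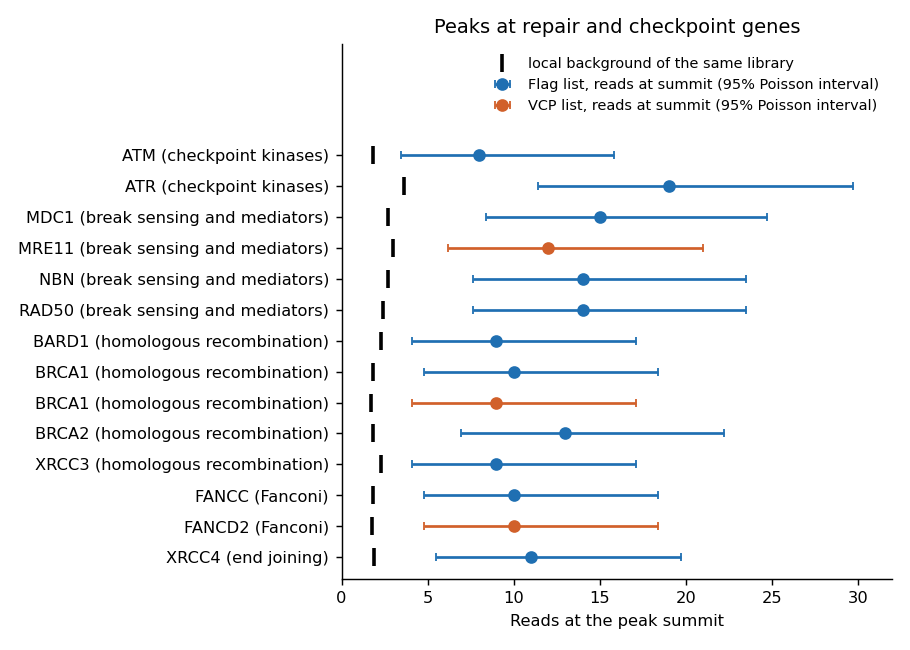
Reads at the summit (horizontal axis) of each peak at a member's end, and of the VCP peak at the start of MRE11, with exact 95% Poisson intervals, in the Flag list (blue) and the VCP list (orange). A black bar gives the local background behind the deposited fold enrichment. The legend in the figure names it as background of the same library. Whether the peak caller took that background from the same library or from the input was not given in the sources used here. Flag summits hold 8 (ATM) to 19 reads (ATR), and all the intervals overlap one another.

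The 11 Flag peaks at members were of middling strength among peaks at gene ends. Their median fold enrichment was 4.03 (range 3.06 to 4.92) beside 3.67 for all 2026 (quartiles 3.16 and 4.21, highest 25.3), and 8 of the 11 lay above that median. Of them 6 (54.5%) had q at or below 0.05, at ATR, BRCA2, MDC1, RAD50, NBN and XRCC4, beside 45.1% of all. With only such peaks counted, 6 of the 29 genes were marked, beside 5.53% of all protein-coding genes. Both VCP peaks at members had q above 0.05, and their fold enrichments of 3.65 and 3.95 stood beside a median of 3.61 over the 395 VCP peaks at gene ends.

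**Figure D3:**
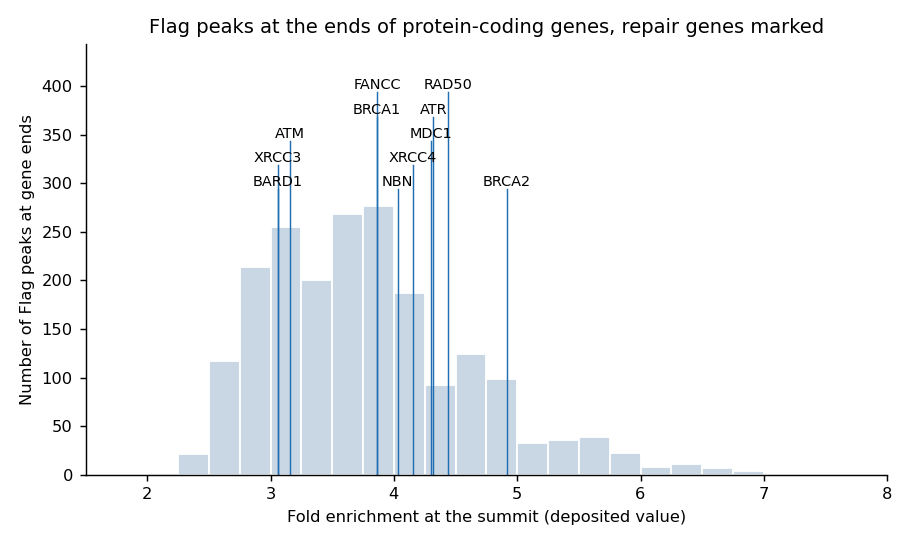
Number of Flag peaks at ends of protein-coding genes (vertical axis) by deposited fold enrichment (horizontal axis, in bins), with the 11 member peaks as labelled lines. The members run from 3.06 (BARD1, XRCC3) to 4.92 (BRCA2), inside the bulk of the distribution, whose highest value of 25.3 lies beyond the axis.

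Overlap of the lists at these genes was counted on few peaks. Of the 11 Flag peaks at members, 0 overlapped a VCP peak by at least 1 bp, where 6.27% of all Flag peaks at gene ends did. Of the 2 VCP peaks at members, 0 overlapped a Flag peak, where 32.4% of VCP peaks at gene ends did. At either share fewer than 1 overlap would be met in so few peaks, so a count of 0 does not set these genes apart. Away from BRCA1, the VCP summit nearest to a Flag summit of a member was 66.0 kb away, at RAD50, and the farthest was 3590 kb away, at BARD1. Near PALB2 peaks of both lists did overlap, but the VCP peak had a -log10 q of 0.0545, the lowest value in its list. The Flag peak there had 2.98. A Flag summit 6.77 kb and a VCP summit 6.87 kb from its outer end, with fold enrichments of 4.55 and 2.47, lay 79 and 24 bp from an end of NDUFAB1, a gene of mitochondrial fatty acid synthesis.

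Where the start was known, the member Flag peaks stood at it. RefSeq promoters, which give strand and start, were found for 25 of the 29 genes and not for NBN, FANCI, XRCC5 and PRKDC. Of these 25, 10 had a Flag summit within 1 kb of an annotated start, against 12.5% of 15842 protein-coding genes with a promoter entry. A VCP summit stood within 1 kb of a start at 3 of the 25, MRE11, BRCA1 and FANCD2, against 2.37%. All 10 Flag summits lay within 500 bp of a start, as did 87.4% of such summits over all genes. The median position was 186 bp upstream (7 of 10 upstream) for members and 94 bp upstream for all genes (61.8% upstream). Inside the genes, beyond 1 kb from the outer ends and away from the ends of other genes, the members held 0 Flag and 0 VCP summits in 2.57 Mb, where all protein-coding genes held 1.30 Flag and 0.432 VCP summits per Mb. At those rates 2.57 Mb would hold only a few.

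**Figure D4:**
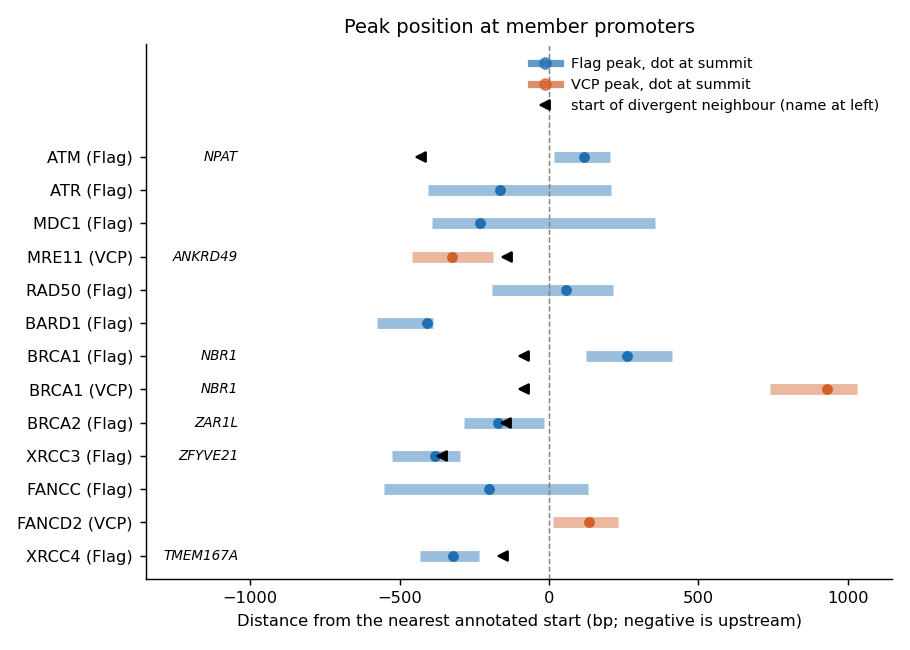
Position of each member peak (bar) and its summit (dot) relative to the nearest annotated start of the gene (horizontal axis, bp, negative is upstream), for Flag (blue) and VCP (orange) peaks, with a black triangle at the start of a divergent protein-coding neighbour. Summits run from 409 bp upstream (BARD1) to 931 bp downstream (BRCA1, VCP list), and at XRCC4, MRE11, BRCA2 and XRCC3 they lie beyond the neighbour's start.

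Sharing a promoter was common among these genes whether or not they had a peak. A protein-coding neighbour on the other strand, with its start within 1 kb, was found for 11 of 25 members (44.0%), beside 13.6% of all genes with a promoter entry. These pairs were ATM with NPAT, CHEK2 with HSCB, MRE11 with ANKRD49, TP53BP1 with MAP1A, BRCA1 with NBR1, BRCA2 with ZAR1L, PALB2 with DCTN5, XRCC3 with ZFYVE21, XRCC4 with TMEM167A, XRCC6 with DESI1 and LIG4 with ABHD13. A Flag summit stood within 1 kb of the member's start in 5 of these 11 (ATM, BRCA1, BRCA2, XRCC3 and XRCC4). The same held in 5 of the 14 members for which no such neighbour was found. A neighbour without a promoter entry, such as IL5 beside RAD50, could not be found this way, for members or for all genes. Over all genes the shares were 23.6% with a divergent neighbour and 10.8% without.

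Counted by gene ends, 6 of the 11 Flag-marked members shared the peak with a protein-coding neighbour (54.5%), beside 34.3% of all Flag-marked genes. With non-coding neighbours included the share was 7 of 11 (63.6%), which added BARD1 with SNHG31, beside 53.6% of all. Besides the 5 pairs above, the RAD50 summit lay 220 bp from an end of IL5, a cytokine gene. At BRCA2, XRCC3 and XRCC4 the neighbour's end was nearer to the summit than the member's own, 26, 23 and 168 bp against 260, 382 and 321 bp to the outer end. At ATM the member was nearer, 118 bp against 547 bp for NPAT, a regulator of histone transcription. With every peak given to the nearest protein-coding gene alone, 8 of the 29 genes kept a Flag peak, beside 9.80% of all protein-coding genes. Non-coding genes did not compete in that count: the BARD1 summit lay 137 bp from the lncRNA gene SNHG31 and 409 bp from BARD1, and the Flag summit of BRCA1 113 bp from BRCA1P1 and 260 bp from BRCA1. Which gene of a pair a peak belongs to cannot be told from these lists.

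The promoter letters were searched on both strands for 9 motifs in the 300 bases from 250 before to 50 after each start. None of the motifs contains another, and a gene counted when any of its annotated starts had a match. The ETS motif CCGGAAG was in 12 of 25 members (48.0%), beside 16.5% of all protein-coding genes and 27.1% of those with a Flag peak at the start. It was in 5 of the 10 members with such a peak (ATM, ATR, RAD50, BRCA2 and XRCC4) and in 7 of the 15 without. The NF-Y motif CCAAT was in 15 (60.0%, beside 42.1% of all) and the SP1 motif GGGCGG in 22 (88.0%, beside 64.3%). The NRF1 motif GCATGCGC was in 4 members (16.0%, beside 4.89% of all), XRCC2, XRCC6, LIG4 and RAD18. None of these had a Flag peak, while 5.63% of all genes with a Flag peak at the start held the motif. At that share fewer than 1 of the 10 members with such a peak would hold it. The CREB motif TGACGTCA was in 3 (12.0%, beside 3% of all), and the E2F motif TTTCGCGC was in EXO1 and FANCC (8.00%, beside 0.941%). The second E2F motif TTTGGCGC was in XRCC6 (1.09% of all), the ZBTB33 motif CTCGCGAG in FANCC (1.80% of all), and the YY1 motif AAGATGGCG in 0 of 25 (3.21% of all). The median GC content was 64.3% for members with a Flag peak at the start and 64.7% for those without. A motif match is a description of letters and not of binding.

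Other repair genes give the wider pathway. Of 146 genes in 9 groups, 29 had a Flag peak at an end (19.9%, beside 11.7% of all genes) and 5 a VCP peak (3.42%, beside 2.34%). By group, Flag peaks stood at 3 of 14 genes of checkpoint signalling, 1 of 15 of ubiquitin signalling at breaks, 6 of 30 of homologous recombination, 2 of 17 of the Fanconi pathway, 5 of 15 of end joining, 4 of 11 of translesion and protein crosslink repair, 3 of 7 of mismatch repair, 2 of 16 of base excision repair and 3 of 21 of nucleotide excision repair. Their 31 Flag peaks had a median fold enrichment of 3.67, the same as all Flag peaks at gene ends.

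The genes named next were picked within each group by Flag -log10 q, up to 3 per group. Several of their peaks lay below the median fold enrichment of 3.67 of all Flag peaks at gene ends. MUS81, a nuclease of joined chromosomes, had a Flag fold enrichment of 6.32 (17 reads over 1.85). ERCC5, the nuclease that cuts beside ultraviolet damage, had 5.75 (23 reads over 3.17), and GTF2H1 and GTF2H4, subunits of the factor that opens DNA there, had 5.27 and 3.15. DCLRE1C, which opens hairpin ends, had 5.16, UBE2A and UBE2B, partners of RAD18, had 4.57 and 3.86, and HLTF, a ligase that acts after RAD18, had 4.33. CDC25C and CDC25A, phosphatases that the checkpoint kinases restrain, had 4.61 and 3.51. ERCC1, the partner of the crosslink nuclease ERCC4, had no peak at its start and one of 4.82 at its far end, with ends of POLR1G and PPP1R13L also within 1 kb of the summit. CENPX, which binds the Fanconi core complex, had 3.04. In mismatch repair, PMS2, MSH3 and MSH6 had 3.86, 3.51 and 2.75. TOP3A, which resolves crossed strands with BLM, had 4.39. In base excision repair NEIL1 and FEN1 had 3.67 and 3.04, and SHLD3, which acts after TP53BP1, had 3.86.

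The 5 other repair genes with a VCP peak were TIMELESS, MUS81, RAD17, FAAP100 and POLM. Of these VCP peaks only that of TIMELESS had q at or below 0.05. TIMELESS, which steadies the replication fork, had 12 VCP reads over 1.74 (fold enrichment 4.74, q = 0.0202). Its Flag summit lay 50 bp away, with a fold enrichment of 3.51 and q = 0.154. MUS81 had a VCP fold enrichment of 3.28 (q = 0.623), with the VCP and Flag summits 36 bp apart. At these 2 genes the peaks of both lists overlapped, each time with q above 0.05 in 1 of the lists. At POLM, an end joining polymerase, the VCP (3.65, q = 0.408) and Flag (3.86, q = 0.0509) summits lay 326 bp apart without overlap. RAD17 (2.47, q = 0.882), which loads the checkpoint clamp, and FAAP100 (3.23, q = 0.408), of the Fanconi core complex, had a VCP peak alone.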

How the data were processed

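Chromatin of HCT116 cells expressing Flag-tagged VCP was fixed for 10 minutes in 1% formaldehyde and digested with micrococcal nuclease, per the labels' protocols. The submitters' processing notes name MACS2 2.1.0, Bowtie 1.1.2, Trimmomatic 0.33 and bcl2fastq 2.17, and the build hg38, with settings not given in the sources used here. Peaks were listed per library, with 1 list for VCP and 1 for Flag. The input was not used here.

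The deposited fold enrichment, a ratio of the summit to the local background, and the deposited -log10 p and -log10 q were used as the authors gave them, within each list. The score deposited with each peak, 10 times its -log10 p without the decimals, was not used. Reads at a summit were taken as the whole number whose Poisson tail, at the background that the ratio gives once 1 read is added above and below, came within 0.001 of the deposited -log10 p, which held for all 7535 peaks.

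Gene ends came from a RefSeq table (GRCh38.p14, 58957 rows kept on the chromosomes) and starts from RefSeq promoters. Peaks on other contigs were left out. Overlap means at least 1 bp. No test was run, since each antibody had 1 library; counts are given beside the same share over all genes. The members, the gene groups and the motifs were chosen with earlier results of these data known. Every member was named. Of the other repair genes, those with a VCP peak and up to 3 per pathway by Flag -log10 q were named, except that some are not reported here. Promoters printed were those of members with a peak in both lists, of the 4 with the highest Flag -log10 q at a start and, as a later choice, of the other members with a VCP peak at a start. Alternatives were other windows, stricter q, other overlap rules, 1 gene per peak, equal list sizes and other neighbours. The code was tested on simulated data. Python 3.11.15, numpy 2.4.6, pandas 2.3.3 and scipy 1.17.1 were used.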

Additional observations from a re-analysis of the deposited data

How the results depend on the processing

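Of 44 alternatives to 9 results, 28 left the value within 1.5 times its main one, or within 1 SD for the median fold enrichment, and 16 did not. With q of at most 0.05, 6 listed genes had a Flag peak in place of 11 (5 in place of 10 at an annotated start), 0 had a VCP peak and 0 had both. Over all protein-coding genes the shares were then 5.53% (Flag) and 0.272% (VCP). The other repair genes then had 14 in the Flag list in place of 29, and 1 in the VCP list in place of 5. With -log10 q of at least 5, 0 listed genes had a Flag peak, 0 a VCP peak and 0 both, and the other repair genes had 3 and 0. Over all protein-coding genes the shares were then 0.7% (Flag) and 0.00503% (VCP). At shares of 0.7% or less, fewer than 1 of the listed genes would be met, so these counts of 0 do not set them apart. With the Flag list cut down to as many peaks as the VCP list, by -log10 q, 6 listed genes had a Flag peak, beside 5.33% of all genes. With a window of 500 bp, 1 listed gene had a VCP peak, beside 1.87% of all protein-coding genes. None had both, since the VCP summit at BRCA1 is 931 bp inside, and 2 other repair genes had a VCP peak. When the peaks had to overlap, 0 listed genes had both. In each of these the peaks or the window were fewer or smaller by construction. A window of 3 kb added FANCG to the Flag list and no gene to the VCP list. No paired analysis was possible because each antibody had 1 library. Counts of 8 to 19 reads at a summit limit every value for the listed genes.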

Other observations

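Some peaks at repair genes lay where the gene ends did not count them. BABAM2, a subunit of a complex that trims ubiquitin chains at breaks, had overlapping peaks of both lists, with summits 21 bp apart, 125 bp (VCP) and 104 bp (Flag) upstream of a start that lies inside its outer ends. Their fold enrichments were 3.82 (q = 0.201) and 3.37 (q = 0.154). RAD52, a recombination mediator, had a Flag peak 201 bp upstream of such an inner start, with a fold enrichment of 4.59 and q = 0.000937. RBBP8, which starts the trimming of broken ends, and TIPIN, the partner of TIMELESS, had weak Flag peaks at inner starts. These lay 75 bp upstream and 21 bp downstream, with fold enrichments of 2.56 (q = 0.457) and 2.69 (q = 0.597).

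Beyond the far end of ERCC1 on chromosome 19 stood 3 Flag summits, 802, 1423 and 2043 bp away, with fold enrichments of 4.82, 3 and 5.40. Ends of POLR1G and PPP1R13L also lay within 1 kb of the first and the second of these summits. These genes were picked after their values were seen.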
